A study of Zea mays with 48 samples.

Results

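Leaf transcripts of an uninfested maize hybrid, the F1 of the inbreds B73 and B96, were set against those of its parents in 12 of the 48 RNA-seq libraries of the series: 4 each of uninfested B73, uninfested B96 and the uninfested F1. B73 is the source of the maize reference genome, and B96 is an inbred studied for resistance to spider mites. All plants were greenhouse-grown and 22 days old, and leaf 4 was taken with a wax barrier on the leaf and no mites. The series also holds the same lines with 200 adult female mites of Tetranychus urticae for 24 hours, and a parallel experiment with the inbred B75, its F1 with B73 and separate B73 libraries. The labels call the libraries biological replicates without giving the plants per library, so a p-value here weighs a difference against the spread among these libraries, which may be technical. They do not say which parent bore the seed, so the line of a parent and its role in the cross cannot be told apart. Of 46272 counted features, 22569 had enough reads to be tested, and each was compared between the F1 and B73, the F1 and B96, both parents, and the F1 and the mid-parent, the plain mean of both parental levels.

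A first-generation hybrid carries 1 copy of each gene from each parent in every cell. If each copy is transcribed as in its own inbred, the hybrid stands at the mean of its parents on a linear scale, and the gene is called additive. A hybrid at the level of a single parent is described as dominant towards that parent, and a hybrid beyond both parents as out of range, or overdominant and underdominant. These are names for levels in a bulk leaf sample, in which fewer cells of a type and less RNA per cell cannot be told apart.

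The 12 libraries held 14.4 to 20.7 M counts on genes. The share of reads on no single gene was 15.8 to 19.5% in B73, 16.7 to 19.3% in the F1 and 18 to 21.5% in B96, and reads of B96 and the F1 were placed on the genome of B73; the part of this in any difference below was not tested. The 10 most counted genes took 8.64 to 12% of the counts, the most in F1 replicate 4. Principal component analysis gave a leading axis with 73.6% of the variance, which ran from B73 (set to 0) to B96 (set to 1). The F1 libraries stood on it at 0.387, 0.413, 0.344 and 0.352, between both parents and nearer to B73. The reference table names no feature with a Zm identifier, so the leaf label could not be checked against marker genes and no gene function is given for them.

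The F1 was called off the mid-parent at 5169 genes (22.9% of those tested), 2227 higher (9.87%) and 2942 lower (13%), by a quasi-likelihood test at an adjusted p under 0.05. A deviation of at least 2-fold was reached by 338 genes above (1.5%) and 760 below (3.37%). Against B73 it was called at 6096 genes (27%), 3624 higher (16.1%) and 2472 lower (11%), and against B96 at 12490 (55.3%), 6817 higher (30.2%) and 5673 lower (25.1%). The parents differed from each other at 14531 genes (64.4%), 7274 higher in B96 and 7257 higher in B73 (32.2% each). The F1 was thus called against B96 at more genes than against B73.

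How the libraries were scaled set the balance of higher and lower calls. Levels are counts per M (CPM) of a library total corrected by TMM, which assumes that most genes are level between libraries, and the median gene of the F1 then stood 0.0034 above the mid-parent on the log2 scale. With plain library totals this median rose by 0.17, and the calls against the mid-parent became 4523 higher and 1463 lower. With median-of-ratios size factors they became 1574 higher and 3554 lower, and with DESeq2 1812 and 3933. With plain totals the share of higher calls also went from 54.6 to 74.7% against B96, and that of genes higher in B96 among genes that differ between the parents from 50.1 to 37.5%. Leaving out F1 replicate 3 lowered the count off the mid-parent from 5169 to 3028, 1122 higher and 1906 lower.

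**Figure D1:**
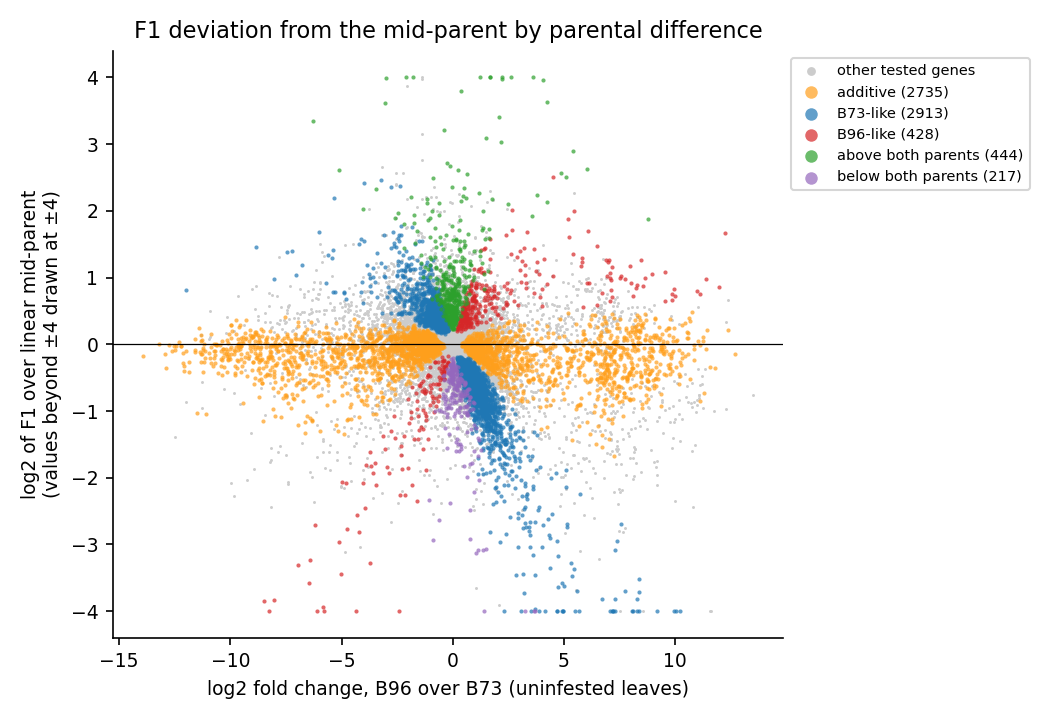
Each point is 1 of the tested genes; the horizontal axis gives the log2 fold change of B96 over B73 and the vertical axis the log2 ratio of the F1 to the linear mid-parent, in uninfested leaves with TMM-scaled totals (values beyond 4 are drawn at 4). The 2913 B73-like genes lie above 0 where B73 is higher and below 0 where B96 is higher, the 428 B96-like genes lie the other way, and the 2735 additive genes lie along 0.

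Among genes that differ between the parents, the F1 leaned towards B73. Of 4044 such genes called off the mid-parent, 3452 (85.4%) lay on the B73 side and 592 on the B96 side. The share on the B73 side was 86% with median-of-ratios factors, 83.2% with plain totals and 86.4% without F1 replicate 3. Over all 14531 genes that differ between the parents, called or not, the F1 mean was nearer to B73 at 69.9%.

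Dominance split the same way. B73-like genes, called off the mid-parent and against B96 but not against B73, numbered 2913 (12.9% of tested genes), and B96-like genes 428 (1.9%). Without F1 replicate 3 they numbered 1826 and 244. Another 515 genes (2.28%) were intermediate, called against both parents and the mid-parent, and 484 of them lay below it; without F1 replicate 3 there were 335. At 7752 genes (34.3%) the parents differed but the tests placed the F1 in no class. A missed call does not show that the F1 equals a parent.

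The B73-like class held 1860 genes with B96 as the higher parent and 1053 with B73 as the higher one, so the F1 was low at more of them. This order depends on the scaling: median-of-ratios factors gave 2184 and 716, but plain totals 854 and 2440. B96-like genes had B96 as the higher parent at 296 and B73 at 132, and at 440 and 110 with plain totals. Intermediate genes divided into 404 and 111, and additive genes into 1230 and 1505.

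**Figure D2:**
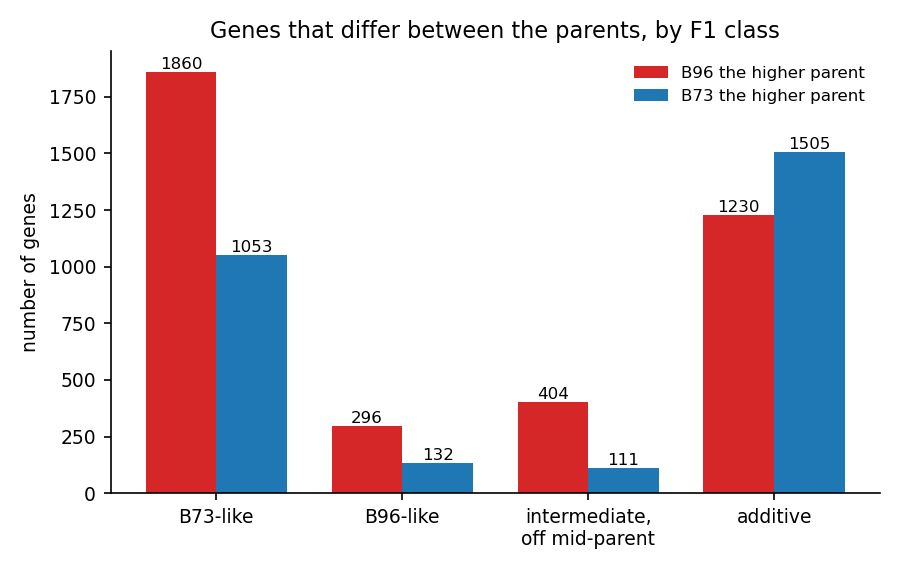
Bars give the number of genes (vertical axis) in 4 classes of genes that differ between the parents, with TMM-scaled totals, red where B96 and blue where B73 was the higher parent. B73-like genes (1860 and 1053) outnumber B96-like genes (296 and 132) for either higher parent, and with plain totals the B73-like bars change order to 854 and 2440.

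At the B73-like genes with the widest parental gap, the F1 kept a high B73 level or lacked reads that B96 had in quantity. Zm00001d043348 had 29.6, 30.7, 39.7 and 38.7 CPM in B73, 26.1, 27.4, 22.1 and 46.4 CPM in the F1 and 0 counts in B96. F1 and B73 libraries overlapped, and the F1 stood 0.81 ± 0.19 (SE, log2) above the mid-parent (adjusted p = 0.00594), at least 540-fold above B96 with B96 set to 3 counts over its 4 libraries. Zm00001d042082 showed the same layout at lower levels, 3.97 ± 1.99 CPM (mean ± SD of 4 libraries, as below) in B73, 5.42 ± 3.03 CPM in the F1 and 0 counts in B96. Its adjusted p of 0.0428 rose past the threshold in 8 of 18 alternative fits, to 0.173 at most, each of them without 1 library: B73 replicate 1, 3 or 4, B96 replicate 1 or 3, or F1 replicate 1, 2 or 3.

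In the other direction, Zm00001d014842 had 7.47, 16.6, 4.14 and 12 CPM in B96, 0 counts in B73 and only 3 counts over all 4 F1 libraries (adjusted p against the mid-parent = 1.37e-06). Zm00001d028172 had 8.82 ± 6.13 CPM in B96, 0 counts in B73 and 0.092 ± 0.104 CPM in the F1 (adjusted p = 1.5e-04). No F1 library of either gene reached the lowest B96 library, which the naming rule required. In infested leaves Zm00001d014842 had 6.82 ± 1.22 CPM in the F1, 79.9 ± 20.1 CPM in B96 and 0.194 ± 0.0457 CPM in B73. Zm00001d028172 had 0.878 ± 0.426 CPM in the F1, 53.7 ± 26.3 CPM in B96 and 0.826 ± 0.762 CPM in B73 there. The change of their deviations with mites missed the threshold (Wald test, adjusted p = 0.247 and 0.941).

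Zm00001d018763 and Zm00001d018761 had reads in B96 and none in the F1. They were picked for their falls below the mid-parent, but a count of 0 gives only a bound on a fall and so no rank. Zm00001d018763 had 27.7, 17.8, 21.3 and 16.6 CPM in B96 and Zm00001d018761 had 13.2, 9.6, 12 and 7.34 CPM. Each had 2 counts over the 4 B73 libraries and 0 counts in each of the 4 F1 libraries. With the F1 set to 3 counts over its libraries, the F1 lay at least 226-fold and 114-fold below the mid-parent (adjusted p = 3.28e-06 and 1.3e-06), and both calls held in all 18 alternative fits. In infested leaves Zm00001d018763 again had 0 CPM in the F1 and 4.96 ± 2.89 CPM in B96. In the F1 of B73 and B75 it was read, at 1.24 ± 0.823 CPM against a mean of 6.1 CPM in B75.

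At the B96-like genes with the widest gap and B96 higher, the F1 overlapped B96 although B73 gave no reads. Zm00001d003140 had 33.6, 36.6, 39 and 54.1 CPM in B96, 40.3, 47, 49.1 and 124 CPM in the F1 and 0 counts in B73, with F1 replicate 4 far above the other 7 libraries that read it. Zm00001d016017 had 34.2 ± 4.29 CPM in B96, 31.2 ± 5.66 CPM in the F1 and 0 counts in B73, and its log2 distance from B96 was -0.14 ± 0.15. The F1 lay above the mid-parent by 1.67 ± 0.35 and 0.86 ± 0.15 (log2; adjusted p = 0.00308 and 6.83e-04). In infested leaves Zm00001d003140 was again B96-like, with 18.8 ± 9.56 CPM in the F1 and 15.3 ± 5.56 CPM in B96. Zm00001d016017 was additive there, with 17.2 ± 2.11 and 26.9 ± 4.05 CPM, and was not called off the mid-parent (adjusted p = 0.121). The change of its deviation with mites missed the threshold (Wald test, adjusted p = 0.476).

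B96-like genes at which B96 is the low parent were the mirror case. Zm00001d002735 had 9.43, 11.1, 10.9 and 12.9 CPM in B73 but 0.185 ± 0.0476 CPM in the F1 and 0.151 ± 0.126 CPM in B96. All 4 F1 libraries lay within the range of B96 and far below B73, a log2 difference from the mid-parent of -4.92 ± 0.42 (adjusted p = 2.72e-09). In the F1 of B73 and B75, whose B75 parent also had nearly no reads of it (0.0618 CPM), the level was 2.74 ± 1.26 CPM. Zm00001d042654 had 8.62 ± 2.66 CPM in B73, 1.07 ± 0.877 in the F1 and 0.496 ± 0.386 in B96, and in infested leaves 33.5 ± 10.8, 16.2 ± 4.29 and 1.59 ± 0.321 CPM. The infested F1 was classed additive there, but the difference of its deviations from the mid-parent, 1.97 ± 0.51 on the log2 scale, missed the threshold (adjusted p = 0.119).

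Additive genes, with the F1 between both parents, called against each and not called off the mid-parent, numbered 2735 (12.1%) and had a median position of 0.492, where 0 is the B73 level and 1 the B96 level. A position near the middle follows from this definition. Zm00001d045919 had 500, 512, 505 and 448 CPM in B73, 217, 217, 197 and 291 CPM in the F1 and 0.596 ± 0.106 CPM in B96. Zm00001d039142 had 731 ± 70.3, 304 ± 37.7 and 1.73 ± 0.666 CPM in B73, the F1 and B96. The F1 to mid-parent ratios of these 2 genes were 0.938 and 0.829. Their 3 groups did not overlap, which the naming rule required of the F1 against each parent.

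With B96 as the higher parent, Zm00001d023601 had 72, 66.3, 65.2 and 70.6 CPM in B96, 36.8, 40.9, 37.6 and 42.6 CPM in the F1 and 0.543 ± 0.19 CPM in B73. Zm00001d011425 had 101 ± 16.6, 37 ± 12.9 and 0.657 ± 0.134 CPM in B96, the F1 and B73. Both genes were additive in the F1 of B73 and B75 too, where Zm00001d023601 had 57.2, 29 ± 3.37 and 0.755 CPM in B75, its F1 and B73. In infested leaves of the B96 cross, however, Zm00001d023601 was intermediate, 0.47 above the mid-parent on the log2 scale (adjusted p = 0.0098), and so was Zm00001d039142, at -0.58 (adjusted p = 0.0232), while the change of these deviations with mites missed the threshold (adjusted p = 0.633 and 0.743). Of the 2735 additive genes, 1710 (62.5%) were again additive in infested leaves, where 14.1% of tested genes were, and 897 of 2414 (37.2%) in the uninfested B75 cross, where 12.4% of the genes tested in both crosses were.

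The F1 stood nearer to B73 where the parental gap was small and nearer to the middle where it was wide. Where the parents differed by under 2-fold, the median position was 0.192 with B96 higher (3380 genes) and 0.198 with B73 higher (3481 genes). From 2-fold to 4-fold it was 0.202 and 0.365, from 4-fold to 8-fold 0.319 and 0.442, from 8-fold to 32-fold 0.364 and 0.515, and beyond 32-fold 0.427 (942 genes) and 0.534 (701 genes). The share called off the mid-parent was 45.6% for B96-higher genes of 2-fold to 4-fold and 18.6% for B73-higher ones, and 30.7 and 10.7% beyond 32-fold. Where the parents were not called different it was 14%. With plain totals the median positions were 0.357 and -0.0244 under 2-fold and 0.52 and 0.515 beyond 32-fold, and with median-of-ratios factors 0.121 and 0.296, and 0.409 and 0.548. The difference between B96-higher and B73-higher genes thus depended on the scaling, while medians beyond 32-fold were above those under 2-fold with each of the 3 scalings.

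Over all genes with wide parental gaps, each F1 library lay on the B73 side. Over the 7670 genes with parents called different and at least 2-fold apart, the median position was 0.399, 0.428, 0.348 and 0.365 in F1 replicates 1 to 4, a mean of 0.385 ± 0.0355. All 4 libraries lay below 0.5. The mean ranged from 0.371 to 0.398 when each of the 12 libraries was left out in turn and was 0.399 with plain totals. At genes with B96 higher it was 0.294 ± 0.0225 and at genes with B73 higher 0.473 ± 0.0427, an order that turned with plain totals (0.409 and 0.377). The lean was weak at the B73-higher genes, where F1 replicate 2 stood at 0.522 and the mean was 0.5 with median-of-ratios factors or DESeq2 and 0.521 with parents at least 4-fold apart.

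The uninfested F1 of B73 and B75 did not share this lean. Its 4 libraries had positions between 0.513 and 0.528, a mean of 0.522 ± 0.00682 over 5930 genes, above every library of the B96 cross (exact two-sided permutation p = 0.0286, 0.0457 adjusted over 8 tests; 4 libraries against 4 allow no smaller p). That cross had 376 B73-like genes (1.67%) against 507 B75-like genes (2.25%), and 1962 genes off the mid-parent (8.69%). With plain totals its position was 0.511. Over the 2798 genes that met the parental criterion in both crosses with the same higher parent, however, the means were 0.486 ± 0.0224 and 0.518 ± 0.0194, a difference that missed the threshold (exact two-sided permutation p = 0.143, adjusted p = 0.163). F1 replicate 2 of the B96 cross stood at 0.512 there. This set was formed after the first values were seen.

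Infested leaves of the same cross stood nearer the middle, at 0.471 ± 0.00644 over 7111 genes (exact two-sided permutation p = 0.0286, adjusted p = 0.0457). Over the 5246 genes that met the criterion with and without mites, the positions were 0.464 ± 0.0219 without and 0.469 ± 0.0198 with mites (exact two-sided permutation p = 0.714). The values over all genes thus rest on sets of genes that are not the same with and without mites.

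**Figure D3:**
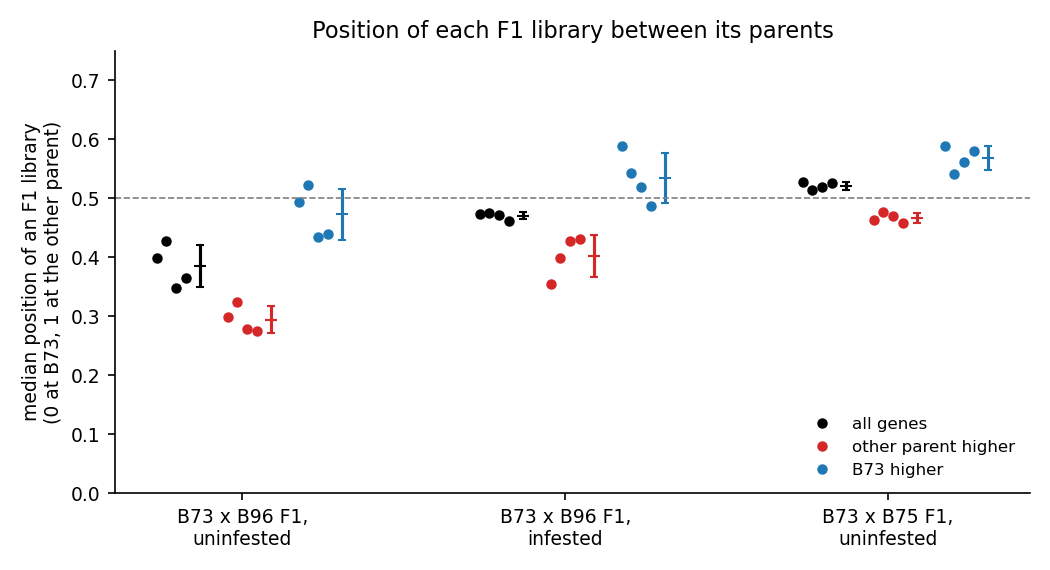
The vertical axis gives, for each F1 library, the median position between its parents (0 at B73, 1 at the other parent) over genes with parents at least 2-fold apart; dots are libraries, bars are mean ± SD of 4, and colours split the genes by the higher parent. The uninfested F1 of B73 and B96 lies at 0.348 to 0.428 over all genes, below its infested leaves and the F1 of B73 and B75; with plain totals red and blue dots of the uninfested B96 cross change order.

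Out-of-range genes were fewer. The F1 lay above both parents at 444 genes (1.97%) and below both at 217 (0.961%). These counts depended on the processing: they were 304 and 335 with median-of-ratios factors, 781 and 83 with plain totals, 349 and 407 with DESeq2, and 250 and 127 without F1 replicate 3. Genes below both parents numbered 141 without B73 replicate 4 and 144 without F1 replicate 1. Most excesses were modest. The median gene above both stood 1.51-fold over the higher parent, with 100 genes at 2-fold or more and 8 at 10-fold or more, and the median gene below both at 0.686 of the lower parent, with 36 at 2-fold or more and 2 at 10-fold or more. F1 libraries did not overlap those of either parent at 262 and 112 of these genes. The classes were called on the same libraries, and the corresponding share of all tested genes was not computed. The parents were not called different from each other at 324 and 149 of the genes above and below both, beside 8038 of all 22569 tested genes.

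Among genes with 5 CPM or more in a group, the 2 that the naming rule picked above both parents were nearly unread in the inbreds. Zm00001d023342 had 7.78, 11.4, 8.56 and 8.73 CPM in the F1, 0.0486, 0.115, 0.147 and 0.34 CPM in B73 and 2 counts in all over the 4 B96 libraries. The F1 was 55.9-fold above B73, a log2 difference of 5.82 ± 0.51 (adjusted p = 5.64e-10). The lowest F1 library lay far above the highest parental one, where the naming rule already required that they not overlap.

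Zm00001d034208 had 4.8, 4.63, 7.11 and 6.61 CPM in the F1, 0.0952 ± 0.0976 CPM in B96 and 0 counts in B73. This was 60.8-fold above B96 (log2 difference 5.82 ± 0.74, adjusted p = 1.19e-08) and at least 141-fold above B73. The level in B96 rests on 5 counts, most of them in replicate 1, without which the log2 difference was 6.63. Both features passed the low-count filter through F1 libraries alone, and the infested libraries entered the same filter and fit. In infested leaves Zm00001d023342 had 8.36 ± 0.77 CPM in the F1 and 0.122 ± 0.141 CPM in B73. Zm00001d034208 had 4.9 ± 0.518 CPM in the infested F1 and 0.119 ± 0.161 CPM in infested B96. Neither had enough reads to be tested in the B75 cross.

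Below both parents, Zm00001d012391 had 2.46, 4.81, 1.75 and 3.24 CPM in the F1, 8.65, 17, 13.7 and 30.5 CPM in B73 and 36.1 ± 2.27 CPM in B96. No F1 library reached the lowest B73 library, which the naming rule required. The log2 difference from B73 was -2.5 ± 0.42 (quasi-likelihood test, adjusted p = 8.05e-05). Zm00001d052340 had 0.0745 ± 0.0759 CPM in the F1, 0.534 ± 0.514 in B73 and 6.43 ± 2.59 in B96, where replicate 4 stood at 10.3 CPM. Its call rested on an adjusted p of 0.0253 against B73 and was lost without B73 replicate 4 (0.149), or without F1 replicate 1, 3 or 4 (0.0646, 0.0623 and 0.0629). Neither gene was classed below both parents in infested leaves, where both were B73-like. There Zm00001d012391 had 15.5 ± 5.28 CPM in the F1 and 26.1 ± 8.28 in B73, and Zm00001d052340 had 0.971 ± 0.377 and 1.52 ± 0.491. Infested B96 had 71.5 and 11.5 CPM, so both genes again had F1 means below those of both parents. The change of their deviations with mites missed the threshold (Wald test, adjusted p = 0.335 and 0.426). In the uninfested B75 cross neither gene was classed below both parents, but both F1 means lay under those of the parents. Zm00001d012391 had 1.81 ± 0.772 CPM in that F1, 2.57 in B75 and 8.98 in B73. Zm00001d052340 had 0.159 ± 0.113, 0.272 and 0.701 CPM.

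The side of the out-of-range genes was also looked up in other leaves. The infested libraries entered the same fit, and so its filter and estimate of the spread, but not the levels that put a gene above or below both parents; the fit of the 12 uninfested libraries alone called 409 above and 189 below. In infested leaves the F1 mean lay above both parental means at 295 of the 444 genes (66.4%, against 19.8% of all tested genes), and 86 were again called above both (19.4%, against 1.59%). Of the 217 genes below both, 148 lay below both infested means (68.2%, against 21.7%) and 48 were called (22.1%, against 1.83%). In the uninfested B75 cross, which was fitted apart, 247 of 428 genes lay above both means (57.7%, against 23.4%), with 39 called again (1.85% of that cross is), and 113 of 212 below both (53.3%, against 19.7%), with 10 called (0.917%). None of these backgrounds was matched for the parental difference. The parents were not called different at 324 of the 444 and 149 of the 217 genes, beside 8038 of all 22569. The part of this in the higher shares was not tested.

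**Figure D4:**
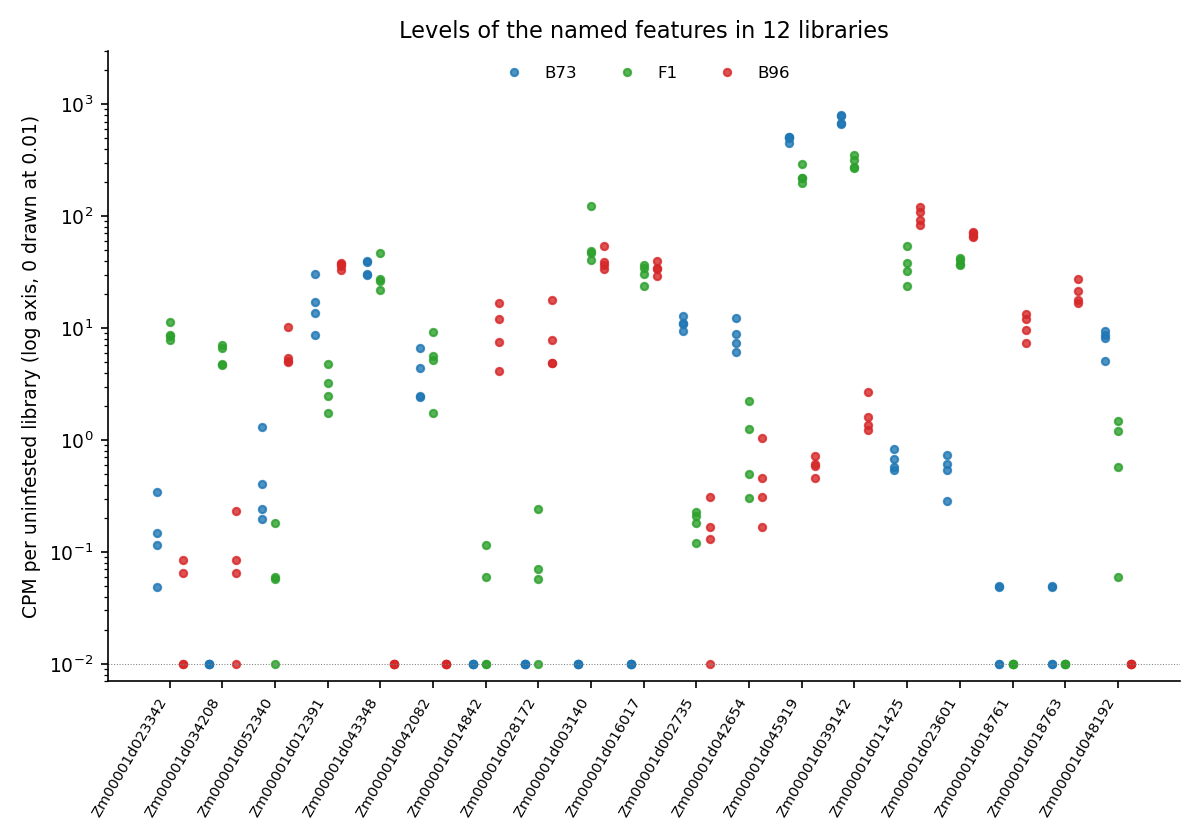
The vertical axis, on a log scale, gives the CPM of each named feature in each of the 12 uninfested libraries, blue for B73, green for the F1 and red for B96, with 0 drawn at 0.01. F1 dots stand clear above both parents for Zm00001d023342 and Zm00001d034208 and below both for Zm00001d012391, and the naming rule required this lack of overlap.

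For genes read in a single parent, the mid-parent lies at 0.5 of the level of that parent. At a level of 5 CPM or more in 1 parent and under 3 counts over the 4 uninfested libraries of the other, 189 genes were read in B73 only and 195 in B96 only. The median F1 level of the B73-only genes was 0.469 of the B73 level (0.442, 0.456, 0.446 and 0.525 in the 4 F1 libraries), and 177 of them (93.7%) lay between 0.25 and 0.75. None lay under 0.1 and 2 over 0.75. The lowest was Zm00001d048192, with 7.84 ± 1.91 CPM in B73 and 0.829 ± 0.638 CPM in the F1.

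The B96-only genes were spread more widely. Their median was 0.388 of the B96 level (0.366, 0.398, 0.342 and 0.437 in the 4 F1 libraries), with 143 (73.3%) between 0.25 and 0.75, 13 under 0.1 and 17 over 0.75. Each of the 4 F1 libraries had a lower median for B96-only than for B73-only genes. With plain totals the medians were 0.49 for B73-only and 0.474 for B96-only genes. Calls off the mid-parent numbered 72 lower and 20 higher among the 195 B96-only genes, and 13 lower and 1 higher among the 189 B73-only genes. Of all tested genes 13% were lower and 9.87% higher. These calls were counted with TMM-scaled totals only. Of the 13 genes under 0.1, 12 were read in infested B96, and all 12 stayed under 0.25 of it in the infested F1, 8 of them under 0.1. The corresponding infested shares of the other B96-only genes and of all tested genes were not computed, so these counts have no background.

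**Figure D5:**
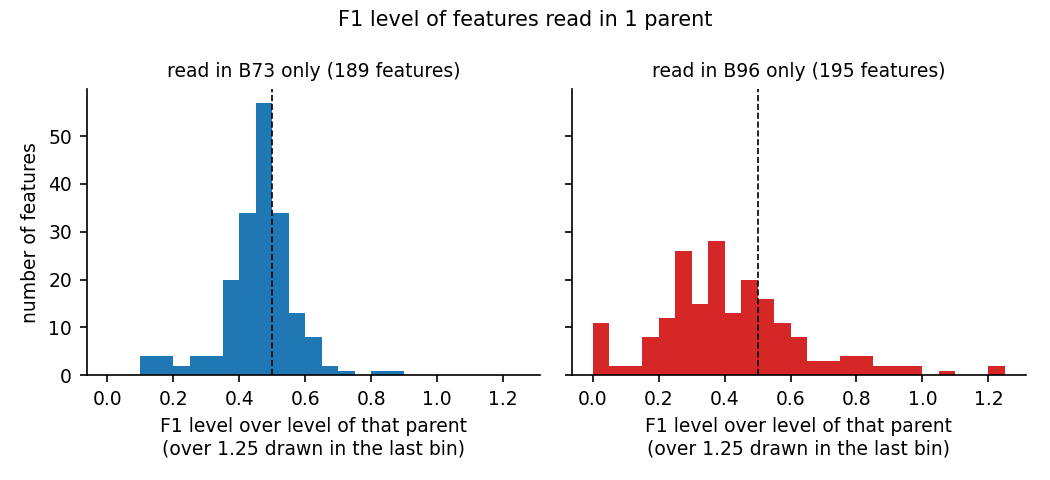
Histograms of the F1 level divided by the level of the parent that reads the feature (horizontal axis), for the 189 features read in B73 only (left) and the 195 read in B96 only (right), with the number of features on the vertical axis and a dashed line at 0.5. The left distribution is narrow around its median of 0.469, and the right one is wider, with 13 features under 0.1 and 17 over 0.75.

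With the tested genes ranked by level and cut into 3 equal parts, B73-like genes made up 5.32% of the lowest part, 12.3% of the middle and 21.1% of the highest, and additive genes 14.2, 13.3 and 8.92%. More counts give smaller errors, and the part of this in the trend was not tested. Infestation raised 8.65% and lowered 4.82% of the genes tested in both experiments by 2-fold or more in B73 of the B75 experiment. The rising genes made up 12.8% of 384 B96-like, 10.5% of 421 intermediate, 5.1% of 2414 additive and 3.99% of 2856 B73-like genes, 8.88% of 428 genes above and 8.96% of 212 below both parents, and 11.6% of 5893 genes with no difference called. The falling genes made up 3.91, 3.8, 4.14 and 5.88% of the first 4 classes, 2.1 and 2.83% above and below both parents, and 5.04% of the genes with no difference called. These shares were not tested against each other.

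Among the smaller kinds of features, 144 with ENSRNA identifiers were tested. They had a median log2 ratio of the F1 to the mid-parent of -0.38, with 1 higher and 20 lower (14.6% called), beside 22.9% of all features. The median was -0.18 with plain totals, where 9 were lower, and 8 were lower without F1 replicate 3.

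The microRNA precursors, the only named features, have known roles in plants. miR156 holds back SPL transcription factors in young shoots, and miR168 targets AGO1, the protein that loads microRNAs. These libraries were poly(A)-selected, so the counts come from precursor transcripts and not from the mature microRNA. Of 154 precursors 4 had enough reads to be tested, and all 4 passed at least 1 test of the F1, as did 65.1% of all tested features.

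zma-MIR156j, which was kept by the low-count filter only with the infested libraries in the fit, was below both parents, with 0.0572, 0.0602, 0 and 0.0704 CPM in the F1 (3 counts in all), 0.491 ± 0.501 in B73 and 0.243 ± 0.121 in B96 (adjusted p = 0.00495 and 0.0452 against B73 and B96). Its log2 difference from B73, -3.1 ± 1.05, was -2.19 without B73 replicate 4. Infested leaves gave the same class, with 0.123 ± 0.147 CPM in the F1, 0.602 ± 0.0622 in B73 and 0.929 ± 0.183 in B96. As the feature passed the filter only through those libraries, this is no separate support for the class. zma-MIR168a, read in B73 at 2.72, 4.21, 4.96 and 11.2 CPM and with 1 count in B96, had 0.515, 0.361, 0.603 and 4.08 CPM in the F1, the highest in replicate 4. It was called against both parents but not off the mid-parent (adjusted p = 0.24). zma-MIR168b ran the other way, with 0.351 ± 0.173 CPM in B73, 1.36 ± 0.481 in B96 and 1.24 ± 0.679 in the F1, called against B73 only (log2 difference 1.8 ± 0.53, adjusted p = 0.00975). zma-MIR156d had 1.26 ± 0.712, 0.308 ± 0.112 and 0.921 ± 0.393 CPM in B73, B96 and the F1 and was called against B96 only (1.57 ± 0.56, adjusted p = 0.0155), a call lost without B96 replicate 2 (0.0503).

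Whether the deviation from the mid-parent changed with mites was tested directly. It differed at 79 (0.351%) among 22487 genes, with 48 deviating upwards (0.213%) and 31 downwards (0.138%) under mites, and 2025 genes (9.01%) had an unadjusted p under 0.05. The count was 45 without F1 replicate 1, 51 without F1 replicate 3, 52 without B96 replicate 3 and 43 with plain totals. In infested leaves 2957 genes (13.1%) were off the mid-parent and 970 (4.3%) were B73-like. Of the 2913 genes that were B73-like without mites, 516 were B73-like with them (17.7%, against 4.3% of tested genes). At 1270 of the 2913 the parents were again called different in the same direction, and the infested F1 was nearer to B73 at 96.5% of these. The corresponding share was 14% of 372 genes that were B96-like without mites and 61% of all 9579 genes with such parents.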

How the data were processed

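The authors deposited whole-number read counts per feature for 48 libraries of poly(A)-selected, strand-marked RNA. The submitters' processing notes name STAR 2.5.3a, the build B73 RefGen_v4 and HTSeq 0.9.1, with no options. The table has 46272 features (44146 Zm, 1798 ENSRNA, 174 GRMZM5G and 154 zma-MIR identifiers) and 5 summary lines, with 15.8 to 21.5% of the reads of the 12 libraries, which stayed out of library sizes and tests. Reads of B96 copies that differ from the B73 genome can be lost, and near-identical copies share reads, so levels of such genes are uncertain. No pair of libraries looked like 1 library deposited more than once (lowest chi-square per gene 5.13).

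Tests used R 4.3.3 and edgeR 4.0.16 with its quasi-likelihood fit (DESeq2 1.42.0 in an alternative). All 24 libraries of the B96 experiment entered 1 fit of group means without covariates, filtered by filterByExpr (minimum count 10) and scaled by TMM. p-values were adjusted by Benjamini-Hochberg over all 22569 features. For the linear mid-parent, the fit with the F1 fixed at the mean of both parents was compared with the free fit by an F test with edgeR's quasi-dispersion, and was tested on simulated data. The difference between infested and uninfested deviations was a Wald test of 22487 features with a finite difference. CPM are per M of the TMM-scaled total, and the error of a group is the SD of 4 libraries. An SE comes from the fit and includes its estimate of the spread among libraries. Floors (3 counts over a group) cover counting error only.

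Classes follow from the 4 tests at an adjusted p of 0.05. Named features have at least 5 CPM in the highest uninfested group and F1 libraries that do not overlap those of a parent the class sets them apart from; the 2 most extreme per class and direction were taken (for additive genes, both parents at 0.5 CPM or more), the extremes of the features read in 1 parent, and every microRNA precursor passing a test of the F1. The reference table (a later assembly) matched 0 Zm identifiers and 153 of 154 precursors, so 13 gene lists gave no value, and no coordinates or sequences are given. The members, lists and rules were chosen with earlier results of these data known. Alternatives were other scalings, no filter, the 12 uninfested libraries alone, DESeq2, a log2-scale mid-parent, a stricter threshold, the replicate number as a block and each library left out.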

Additional observations from a re-analysis of the deposited data

Results flagged for a closer look

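Among 72 checks of 4 libraries for a value far from the others, 5 stood out, where chance gives about 1 in 20. Zm00001d052340 reached 10.3 CPM in B96 replicate 4, Zm00001d003140 124 CPM in F1 replicate 4, and zma-MIR168a 0.0767 CPM (1 count) in B96 replicate 3. F1 replicate 4 was also high for zma-MIR168a (4.08 CPM) and zma-MIR168b (2.25 CPM), and it had the largest share of counts on its 10 most counted genes (12%).

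Deviations from the mid-parent differed between infested and uninfested leaves at 79 genes by a Wald test of the difference. The position of the uninfested F1 of B73 and B96 was lower than in infested leaves of the same cross, by a difference of -0.0854 over all genes and of -0.108 over genes with B96 higher; over genes with B73 higher the difference of -0.0617 missed the threshold (exact two-sided permutation p = 0.143, adjusted p = 0.163). It was lower than that of the uninfested F1 of B73 and B75 by a difference of -0.136 over all genes, -0.172 over genes with the other parent higher and -0.0955 over genes with B73 higher. Each of the other 5 differences had an exact two-sided permutation p of 0.0286 with 4 libraries against 4 (0.0457 adjusted over 8 tests), the smallest possible, and every library of the uninfested B96 cross lay below every library it was compared with in those 5. Over genes shared by the sets compared, both differences were smaller and missed the threshold.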

How the results depend on the processing

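Over all genes with different parents the F1 stayed on the B73 side under every alternative run, with a position of 0.316 to 0.455 and more B73-like than B96-like genes throughout. At B73-higher genes the position reached 0.5 with median-of-ratios factors and DESeq2 and 0.521 with parents at least 4-fold apart, and the split of higher and lower calls moved with the scaling. Below-both genes numbered 335 with median-of-ratios factors and 407 with DESeq2. Plain totals gave 781 genes above both, 83 below both, 318 intermediate and 43 with a difference between infested and uninfested deviations. A log2-scale mid-parent, which lies below the linear one and so raised the median deviation by 0.1, gave 800 B96-like, 1578 intermediate and 1672 additive genes, and 70.1% of calls against it were higher, beside 43.1% with the linear one. An adjusted p under 0.01 gave 153 above both, 64 below both, 1429 B73-like, 166 B96-like and 209 intermediate genes. The position was 0.455 over genes with parents at least 4-fold apart and 0.316 over all genes that differ. The cause of these moves was not tested beyond what each setting changes.

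Leaving out each of the 12 libraries gave 3028 to 5261 genes off the mid-parent, 5142 to 6645 against B73, 11335 to 12636 against B96 and 13777 to 14906 between the parents. It gave 250 to 575 above both, 127 to 322 below both, 1826 to 2988 B73-like, 244 to 496 B96-like, 335 to 549 intermediate and 2325 to 2701 additive genes, 45 to 83 for the infested difference and positions of 0.371 to 0.398. The lowest counts of the first and of most classes came without F1 replicate 3. For each of the 23 named features 1 value was followed, so class membership was not rechecked. Of 413 such values under an alternative, 399 kept their call or stayed within 1 SD, 13 lost the call and 1 moved. The moved value was the position of Zm00001d023601, 0.697 with plain totals. None changed sign. The 1 SD rule was used for features named as additive and for Zm00001d048192. Leaving out an F1 library can hardly move such a mean by 1 SD, so those fits could not decide stability. The call of zma-MIR156j against B96 (quasi-likelihood test, adjusted p = 0.0452) was not followed.

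The replicate numbers were not taken as pairs in the main fit. Of 12 same-numbered pairs of libraries 6 deviated together (correlation over 0.1, range -0.168 to 0.362), and 5 of 12 libraries were closest to their own number. The library numbers of the B96 experiment also run together by replicate number, so a shared effect of the replicate number is not excluded. The replicate block gave 6127 genes off the mid-parent, 6792 against B73, 13174 against B96, 545 above both, 304 below both, 3397 B73-like, 509 B96-like and 106 for the infested difference, and a position of 0.385. Each of these counts was above that of the main fit.

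At 14.4 to 20.7 M counts a library, features unread in a group are limited only to under about 0.0411 CPM in B73, 0.0564 in B96 and 0.0462 in the F1.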
